A study of Arabidopsis thaliana with 28 samples.

Results

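HFR1 (AT1G02340), PIL1 (AT2G46970), PAR1 (AT2G42870) and PAR2 (AT3G58850) are helix-loop-helix proteins of Arabidopsis thaliana that vegetation shade is known to induce and that are known to restrain elongation. The 4 genes were taken by identifier from the 33602 reference genes of every library. Whole seedlings aged 7 d, grown on culture plates in long days of 16 h light and 8 h dark, were profiled by strand-specific RNA sequencing. Constant regime libraries came from seedlings kept at 17 °C. Oscillating regime libraries came from seedlings held at 17 °C except between ZT4 and ZT12, when the growth chamber stood at 27 °C (ZT, hours after lights on). The wild type Col-0 and a mutant labelled pif7, whose allele the labels do not give, were each sampled in both regimes at 7 times, ZT0, ZT4, ZT5 and ZT8, then ZT12, ZT16 and ZT20. That makes 28 libraries with 1 for every condition, so no value below has a replicate of its own.

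The libraries held 1.32 to 2.82 gigabases of aligned sequence. PIF7 itself was listed at 8.42 to 38.6 TPM (a length-corrected share of all transcripts) in the 14 Col-0 libraries and at 1.91 to 13.1 TPM in the 14 pif7 libraries, and was lower in pif7 at all 7 times of the constant regime by a log2 difference of -1.64 ± 0.14 (SE, limma, adjusted p = 1.26e-05). HSP70-4, a heat-inducible chaperone, differed between regimes by 7.42 at ZT5 (adjusted p = 6.2e-10) and already by 2.96 at ZT4 (adjusted p = 1.01e-05). Marker genes of green tissue and of root were detected in every library. The summed level of 3 green tissue genes ran from 12611 to 20930 TPM in Col-0 constant against 9855 to 18615 TPM in Col-0 oscillating libraries, and from 13276 to 19447 against 10432 to 16944 TPM in pif7. The sum of 4 root genes ran from 1307 to 1954 against 1723 to 2459 TPM in Col-0, and from 1374 to 1952 against 1462 to 1900 TPM in pif7. The sum of 3 seed storage genes ran from 0.117 to 0.531 against 0.62 to 1.64 TPM in Col-0, and from 0.0556 to 0.648 against 0.511 to 10.05 TPM in pif7. Among these CRA1 alone had a higher median in the oscillating regime, SESA3 stayed at or below 0.293 TPM and CRB was listed at 0 in every oscillating library. The part of these markers in the results below was not tested.

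Phytochrome-interacting factors (PIFs) are basic helix-loop-helix proteins that bind G-box and related E-box sequences and switch on elongation genes in shade and in warmth. Phytochromes, activated by red light, inactivate the PIFs. HFR1, PAR1 and PAR2 are atypical members of the same superfamily that bind DNA poorly or not at all. They pair with PIFs or with other basic helix-loop-helix partners and keep them off DNA, and PIFs are in turn known to induce HFR1 and PIL1. PIL1 is a close relative of the PIFs that shade induces within minutes and that can also pair with them. HFR1 protein is marked for degradation by the COP1 and SPA ubiquitin ligase in darkness and is more stable in light.

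All 4 genes lie on the minus strand, at chr1:465718-467844 for HFR1, chr2:19295490-19297826 for PIL1, chr2:17836416-17837250 for PAR1 and chr3:21759352-21759942 for PAR2 (TAIR10), and no other reference gene overlaps any of them. The motifs that PIFs bind were searched on both strands before the gene starts, as the G-box CACGTG and the PBE-box CACATG (the PIF-binding E-box). The stretch of 150 bases that held most matches within 2000 bases before the RefSeq gene start was read from the TAIR10.1 genome. Each is given 5′ to 3′ on the gene's strand, with the matches in capitals, because it shows how the motifs of the 4 genes differ. A match to the PBE-box on the other strand reads CATGTG.
HFR1: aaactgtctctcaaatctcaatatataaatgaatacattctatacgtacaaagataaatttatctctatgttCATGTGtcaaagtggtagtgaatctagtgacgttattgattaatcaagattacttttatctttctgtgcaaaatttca
PIL1: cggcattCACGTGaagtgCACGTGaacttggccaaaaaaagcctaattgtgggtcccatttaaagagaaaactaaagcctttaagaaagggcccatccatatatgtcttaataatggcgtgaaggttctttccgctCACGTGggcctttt
PAR1: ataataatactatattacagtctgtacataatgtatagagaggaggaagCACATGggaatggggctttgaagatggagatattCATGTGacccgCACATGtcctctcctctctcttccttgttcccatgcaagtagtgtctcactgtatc
PAR2: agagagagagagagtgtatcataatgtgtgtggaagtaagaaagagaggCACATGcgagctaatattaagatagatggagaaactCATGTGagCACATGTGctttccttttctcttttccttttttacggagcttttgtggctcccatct

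The stretches lie at chr1:468216-468365 (HFR1), chr2:19298938-19299087 (PIL1), chr2:17838294-17838443 (PAR1) and chr3:21761065-21761214 (PAR2), all read on the minus strand. Positions count from the RefSeq gene starts, at 467880 for HFR1, 19297858 for PIL1, 17837618 for PAR1 and 21760390 for PAR2. These lie upstream of the gene spans given above, so the positions and windows depend on the annotation used. PIL1 carried 3 G-boxes, which began -1222, -1211 and -1093 bases from the start, and no PBE-box within 2000 bases. At least 3 G-boxes were found in the same window of 1.33% of 27440 coding genes, and at least 1 in 23.8%. The count within 2000 bases was not planned, unlike that from 250 bases before to 50 after the start. PAR1 and PAR2 resembled each other in their order of motifs. In PAR1 a G-box at -937 was followed by PBE-boxes at -910, -776, -742 and -731, and in PAR2 a G-box at -1030 was followed by PBE-boxes at -1002, -775, -739, -731, -729 and -128. The matches at -731 and -729 of PAR2 overlap, since the motif is read there on both strands. At least 4 PBE-boxes occurred in 3.48% of genes, at least 6 in 0.339% and at least 1 in 61.0%. HFR1 carried G-boxes at -1419 and -1000 and a single PBE-box at -413. In the window from 250 bases before to 50 after the start, only PAR2 held a match, its PBE-box at -128, where 19.3% of genes held either motif. These matches describe the sequence and are not evidence of binding.

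**Figure D1:**
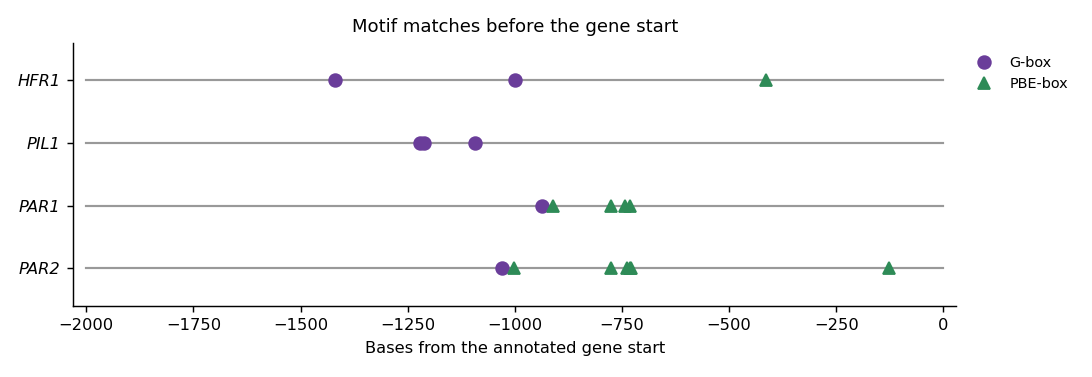
Positions of G-box (circles) and PBE-box (triangles) matches on either strand, in bases from the RefSeq gene start, which is at 0 on the horizontal axis, for each of the 4 genes in a row of its own. PIL1 has only G-boxes, around -1222 to -1093, while PAR1 and PAR2 each have a G-box followed by PBE-boxes near -731.

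The 4 genes differed in abundance. PAR2 was the most abundant on the TPM scale, which divides by transcript length, with a median of 21.7 TPM over the 28 libraries, followed by PAR1 at 11.2, HFR1 at 8.49 and PIL1 at 0.552. The ranges of the first 3 overlapped, from 11.7 to 62.1 TPM for PAR2, 4.19 to 38.6 for PAR1 and 2.72 to 54.5 for HFR1. PIL1 reached at most 2.04 TPM, below the lowest value of any of the others. The highest library of HFR1, PAR1 and PAR2 was the same one, Col-0 in the oscillating regime at ZT8.

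**Figure D2:**
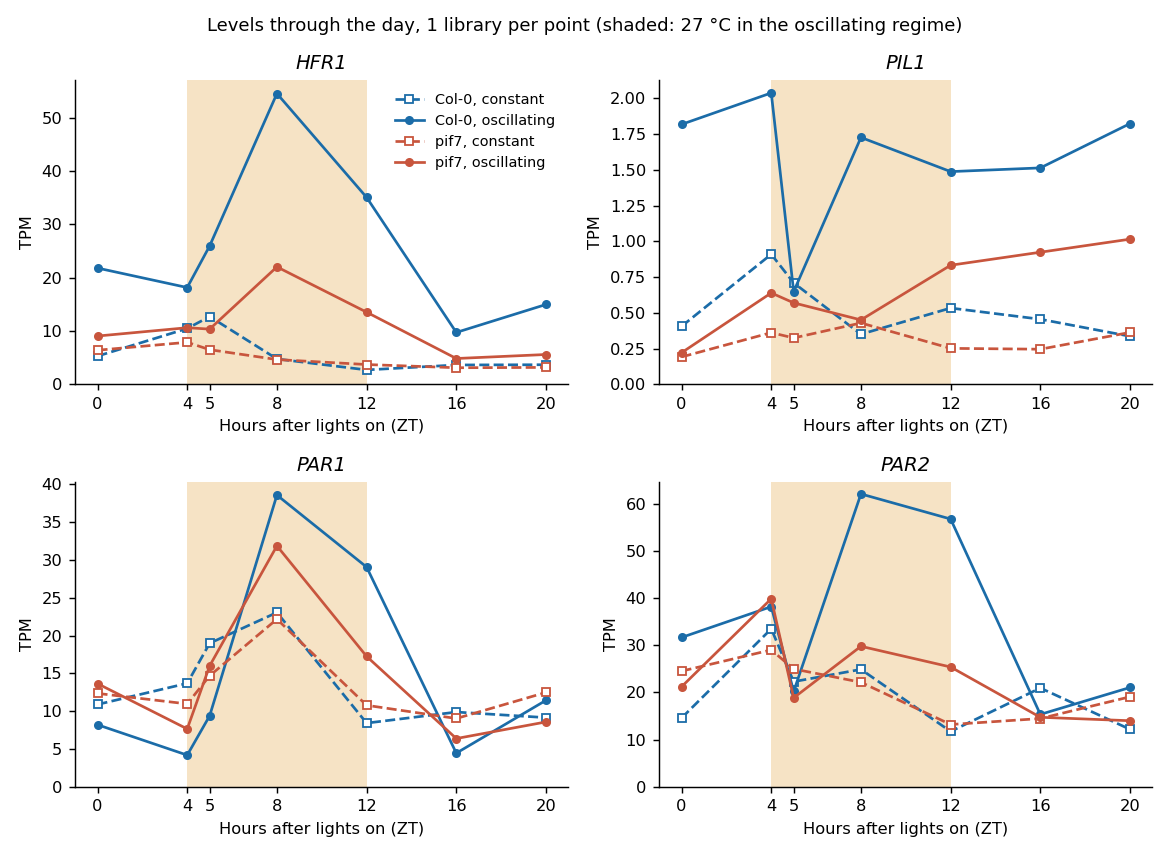
TPM (vertical axis, from 0, another scale in each panel) against hours after lights on for the 4 genes, 1 library per point, with Col-0 in blue, pif7 in red, the oscillating regime as filled circles and the constant regime as open squares. HFR1 in Col-0 rises to 54.5 TPM at ZT8 of the oscillating regime, pif7 reaches 22.03 there, and all constant values stay at or below 12.7.

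HFR1 showed the largest regime difference of the 4 in the warm hours on the log2 scale. In Col-0 at constant 17 °C it was listed at 5.31, 10.5, 12.7, 4.78, 2.72, 3.65 and 3.70 TPM at the 7 sampling times in turn from ZT0 to ZT20. In the oscillating regime the same times gave 21.8, 18.2, 25.95, 54.5, 35.1, 9.75 and 14.98 TPM. Every Col-0 oscillating value was above the constant value of the same hour, by a ratio that ran from 1.73 at ZT4 to 12.9 at ZT12. In pif7 the constant values were 6.41, 7.90, 6.51, 4.66, 3.73, 3.13 and 3.19 TPM and the oscillating values 9.07, 10.6, 10.4, 22.03, 13.5, 4.86 and 5.61 TPM. The order of regimes was the same at all 7 times in pif7, with smaller ratios, from 1.35 at ZT4 to 4.72 at ZT8.

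Regime differences were tested over the 3 sampling times that fell after warming began (ZT5, ZT8, ZT12), here called the warm window, as log2(TPM + 1) in oscillating minus constant libraries. TPM was first divided by a factor for each library. Counts of pairs use these scaled values, so a pair can be ordered otherwise than its listed TPM. Fold changes on that scale understate the change of genes with low values. ZT4, when warming began, was counted outside the window and among the cool hours. HSP70-4 already differed between regimes there by 2.96 (limma, adjusted p = 1.01e-05). Whether the ZT4 libraries had already been warmed was not tested. Over both genotypes HFR1 was higher in the warm window by 1.97 ± 0.26 (SE, 6 of 6 pairs higher, adjusted p = 0.00037), and PIL1 by 0.42 ± 0.14 (5 of 6 pairs, adjusted p = 0.0474). Of all 21031 genes tested 10.4% passed as higher. PIL1 was tested only because of its level in the oscillating regime, so its call is not read against that background. The difference of PAR2 was 0.72 ± 0.28 (adjusted p = 0.0828) and that of PAR1 0.46 ± 0.27 (adjusted p = 0.258), both short of the threshold. The median over the 4 genes was 0.59, and that over all genes tested -0.0045. PIL1 is among the 4, so the first is likewise not read against the second. In whole seedlings, more cells that express a gene and more RNA per cell cannot be told apart.

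In Col-0 alone, where 2.73% of genes passed as higher, HFR1 rose by 2.54 ± 0.37 (3 of 3 pairs, adjusted p = 0.0037). None of the other members passed there, with 1.14 ± 0.39 for PAR2 (adjusted p = 0.111), 0.58 ± 0.20 for PIL1 (adjusted p = 0.11) and 0.51 ± 0.39 for PAR1 (adjusted p = 0.483). In pif7 alone, 2.34% of genes passed as higher and none of the 4 did. HFR1 came closest, at 1.40 ± 0.37 (3 of 3 pairs, adjusted p = 0.0508), and the others lay between 0.26 and 0.40. The Col-0 call of HFR1 was lost without ZT8 (2.22, adjusted p = 0.073).

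**Figure D3:**
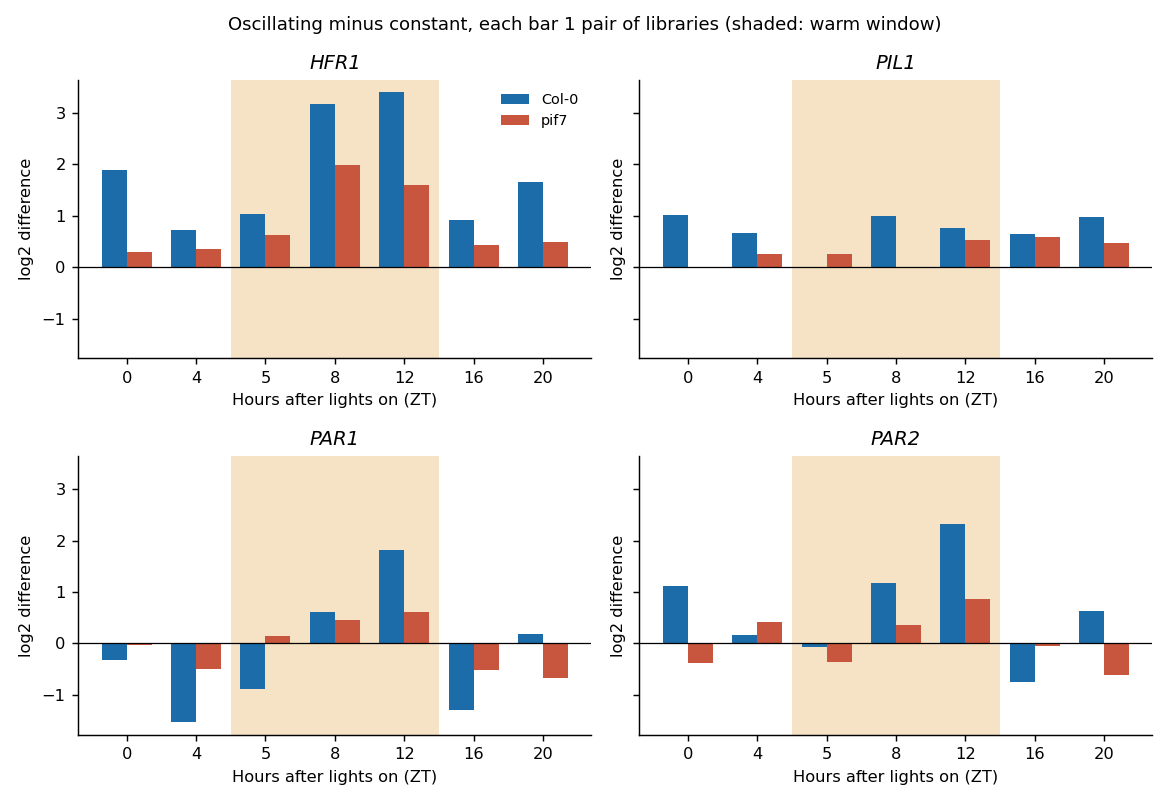
Oscillating minus constant difference in log2(scaled TPM + 1) (vertical axis) at each sampling time (horizontal axis) for the 4 genes, each bar 1 pair of libraries, Col-0 in blue and pif7 in red, with the warm window shaded. HFR1 is above 0 in all 14 pairs and largest at ZT8 and ZT12, while PAR1 is below 0 in both genotypes at ZT4 and ZT16 and above 0 in both at ZT8 and ZT12.

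Within the warm window the response was not even. At ZT5, an hour after warming began, no member differed between regimes over both genotypes, with HFR1 at 0.83 ± 0.46 (adjusted p = 0.347), and 4.03% of genes passed as higher. At ZT8 HFR1 was higher by 2.58 ± 0.46 (adjusted p = 0.00641), alone among the 4, and 5.18% of genes passed as higher. At ZT12 HFR1 was higher by 2.50 ± 0.46 (adjusted p = 0.00531), PAR2 by 1.60 ± 0.41 (adjusted p = 0.0232) and PAR1 by 1.21 ± 0.35 (adjusted p = 0.0375), 3 of 4 where 9.13% of all genes passed as higher. With no filter on low values the ZT12 calls of PAR1 and PAR2 were lost (adjusted p = 0.0753 and 0.0524). At ZT0, ZT4, ZT16 and ZT20 no member passed in either direction, where 0.799%, 4.77%, 3.05% and 0.875% of all genes did. The largest of those values were 1.09 ± 0.46 for HFR1 at ZT0 (adjusted p = 0.465) and -1.02 ± 0.35 for PAR1 at ZT4 (adjusted p = 0.135).

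Outside the warm window, over ZT0, ZT4, ZT16 and ZT20 together, 2.62% of genes were called higher and the members split. HFR1 was higher by 0.84 ± 0.23 (8 of 8 pairs, adjusted p = 0.0454) and PIL1 by 0.58 ± 0.12 (8 of 8 pairs, adjusted p = 0.0141). Here too PIL1 was tested only because of its level in the oscillating regime, so its call is not read against that share. PAR1 was at -0.59 ± 0.24 (1 of 8 pairs higher, adjusted p = 0.159) and PAR2 at 0.07 ± 0.24 (adjusted p = 0.89). The pif7 pair of PAR1 at ZT0, listed at 13.6 TPM oscillating against 12.3 constant, was at -0.03 after scaling. The window minus outside difference was 1.12 ± 0.35 for HFR1 (adjusted p = 0.054), 1.04 ± 0.36 for PAR1 (adjusted p = 0.0825), 0.65 ± 0.37 for PAR2 (adjusted p = 0.266) and -0.16 ± 0.18 for PIL1 (adjusted p = 0.611). None passed, where 5.29% of genes did as higher. Without ZT5 the difference passed for HFR1 (1.69, adjusted p = 0.00109), PAR1 (1.46, adjusted p = 0.0138) and PAR2 (1.12, adjusted p = 0.0457). ZT5 was the time of the window with their lowest regime difference, so these calls give no support of their own. The HFR1 call outside the window needed nearly all times. Without ZT0, ZT4, ZT8, ZT16 or ZT20 its adjusted p lay above the threshold, at up to 0.194.

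PIL1, the PIF relative, was listed at low levels in every library, with a coverage of 0.284 to 3.19 per base. In Col-0 it was at 0.406, 0.91, 0.71, 0.351, 0.534, 0.456 and 0.337 TPM through the constant day and at 1.82, 2.04, 0.649, 1.73, 1.49, 1.51 and 1.82 TPM through the oscillating day. Outside the warm hours the Col-0 ratio between regimes was larger for PIL1 than for HFR1 at all 4 times, from 2.24 at ZT4 to 5.41 at ZT20. All Col-0 oscillating values except the one at ZT5 were above every Col-0 constant value. In pif7 the constant day gave 0.192, 0.362, 0.325, 0.429, 0.252, 0.246 and 0.364 TPM and the oscillating day 0.222, 0.639, 0.57, 0.451, 0.833, 0.924 and 1.02 TPM. The pif7 oscillating values were above the constant value of the same hour at all 7 times, and the ranges overlapped.

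PIL1 reached 1 TPM, the level that entry to the tests required in at least 2 libraries, in 7 libraries. Of these 6 were Col-0 oscillating and 1 pif7 oscillating, and none was constant, so PIL1 was tested only because of the regime in which it is high. Its calls give no support of their own for that reason. In Col-0 outside the warm window PIL1 stood at 0.83 ± 0.17 (4 of 4 pairs, adjusted p = 0.0403), a term added after seeing the data, where 0.471% of genes passed as higher and which 7 of 13 alternatives lost. The call over both genotypes in the warm window was lost with a pseudocount of 0.1 or 5 (log2 differences 0.90 and 0.13, adjusted p = 0.0542 and 0.0516), and with any time but ZT5 left out (adjusted p up to 0.304). The call outside the window over both genotypes was lost without ZT16 (0.57, adjusted p = 0.0815) or ZT20 (0.53, adjusted p = 0.101).

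PAR1, a repressor of auxin-responsive genes, kept a daily rhythm in both regimes with its highest level at ZT8. Col-0 constant libraries gave 10.9, 13.7, 18.98, 23.05, 8.42, 9.88 and 9.15 TPM from ZT0 to ZT20, and Col-0 oscillating libraries 8.20, 4.19, 9.38, 38.6, 29.1, 4.45 and 11.4 TPM. The regimes crossed, with oscillating values below constant ones at ZT0, ZT4, ZT5 and ZT16 and above them at ZT8, ZT12 and ZT20. In pif7 the constant values were 12.3, 10.96, 14.7, 22.2, 10.8, 9.03 and 12.5 TPM and the oscillating values 13.6, 7.65, 15.99, 31.9, 17.2, 6.38 and 8.58 TPM. In pif7 too the oscillating libraries were the lower at ZT4 and ZT16 and the higher at ZT8 and ZT12. The highest value was 9.21 times the lowest over the Col-0 oscillating day and 2.74 times the lowest over the Col-0 constant day.

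PAR2, the closest relative of PAR1, was highest at ZT4 in the constant regime. Col-0 constant libraries gave 14.6, 33.5, 22.3, 24.9, 11.7, 20.9 and 12.2 TPM, and Col-0 oscillating libraries 31.7, 38.2, 20.2, 62.1, 56.8, 15.4 and 21.1 TPM. The Col-0 oscillating values were 4.84 times the constant ones at ZT12, 2.49 times at ZT8, 2.17 times at ZT0 and 1.73 times at ZT20, and below them at ZT5 and ZT16. In pif7 the constant values were 24.5, 29.02, 24.98, 22.2, 13.2, 14.5 and 19.1 TPM and the oscillating values 21.2, 39.9, 18.9, 29.8, 25.4, 14.7 and 14.01 TPM. The same ratios in pif7 were 1.92 at ZT12, 1.34 at ZT8, 0.865 at ZT0 and 0.734 at ZT20, and the ranges of the 2 regimes overlapped over the day.

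The Col-0 pair at ZT5 weighed on both PAR genes. It was the only Col-0 pair of the window below 0 for PAR1 (-0.89), PAR2 (-0.074) and PIL1 (-0.027). Leaving it out therefore raises their differences, and the calls that follow give no support of their own. Without it, the warm window difference over both genotypes was 0.81 for PAR1 (adjusted p = 0.0299) and 1.02 for PAR2 (adjusted p = 0.0171), each past the threshold. Without the pair, the Col-0 difference was 1.75 for PAR2 (adjusted p = 0.0335) and 0.88 for PIL1 (adjusted p = 0.0339). Leaving out ZT12 instead turned the Col-0 difference of PAR1 to -0.14 (adjusted p = 0.91).

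Time of day was tested over the 7 times of each regime, with the 2 genotypes as the spread. In the constant regime HFR1 varied by 1.39 on the log2 scale between its highest and lowest time (adjusted p = 0.0077), PAR1 by 1.33 (adjusted p = 0.0084) and PAR2 by 1.40 (adjusted p = 0.0448). PIL1 varied by 0.35 and did not pass (adjusted p = 0.716). In that regime 30.6% of all genes varied. The same 3 genes varied in the oscillating regime, HFR1 by 2.29 (adjusted p = 1.11e-05), PAR1 by 2.62 (adjusted p = 0.00046) and PAR2 by 1.58 (adjusted p = 0.00142), all highest at ZT8 on average, where 65.7% of all genes varied. In the constant regime the call of PAR1 was lost without ZT8 (0.79, adjusted p = 0.157), and that of PAR2 was lost without ZT4, ZT5, ZT8, ZT12 or ZT20 (adjusted p up to 0.146). PIL1 did not pass in the oscillating regime either (0.49, adjusted p = 0.553).

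In the order of levels over the constant day, HFR1 was highest at ZT5 and ZT4, which overlapped in their range over genotypes, then stepped down without overlap to ZT0, to ZT8 and to ZT20. PAR1 in the constant regime was highest at ZT8, above ZT5, and ZT5 above ZT4, each step without overlap. PAR2 at ZT4 lay above all other times of the constant day. Over the oscillating day neighbours in the order of HFR1 and PIL1 overlapped in their range over genotypes, which lay far apart. Within each genotype, HFR1 was highest at ZT8, then at ZT12, and lowest at ZT16. PAR1 at ZT8 lay above ZT12, and ZT12 above ZT5, in both genotypes.

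The comparison of pif7 with Col-0 asks how far each gene depends on PIF7. At constant 17 °C no member differed between genotypes, where 0.0903% of genes passed in either direction. The constant differences were -0.14 ± 0.12 for HFR1, -0.21 ± 0.12 for PIL1, 0.02 ± 0.16 for PAR1 and 0.12 ± 0.17 for PAR2 (7 pairs each, adjusted p = 0.9997 for all). In the warm hours of the oscillating regime HFR1 was lower in pif7 by a log2 difference of -1.31 ± 0.19 (0 of 3 pairs higher, adjusted p = 0.0103), and 0.0856% of genes passed as lower. Relative to Col-0 the mutant held 39.9% of the HFR1 level at ZT5, 40.4% at ZT8 and 38.6% at ZT12. In the other hours of the oscillating regime HFR1 was lower by -1.02 ± 0.16 (0 of 4 pairs higher, adjusted p = 0.0177; 0.0951% of genes passed as lower), at 41.6% of Col-0 at ZT0, 58.5% at ZT4, 49.9% at ZT16 and 37.4% at ZT20. At constant 17 °C the share ran from 51.2% at ZT5 to 137% at ZT12. The warm hours call was lost without ZT8 (-1.33, adjusted p = 0.274) or without ZT12 (-1.28, adjusted p = 0.0991), and the call in the other hours without ZT0, ZT8, ZT16 or ZT20 (adjusted p up to 0.197), with the difference between -1.09 and -0.93.

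PIL1 was below Col-0 in pif7 at all 7 times of the oscillating regime, at 12.2% to 87.9% of the Col-0 level (median 55.7%). In the constant regime PIL1 was below Col-0 in pif7 at 5 of 7 times, at 39.8% to 122% (median 47.3%). Every constant value lay below 1 TPM and the constant difference did not pass, so a lower level in that regime is not shown. The log2 differences of the oscillating regime, -0.73 ± 0.16 in the cool hours (adjusted p = 0.12) and -0.49 ± 0.19 in the warm hours (adjusted p = 0.931), did not pass. PAR2 in pif7 was at 93.3% of Col-0 at ZT5, 48.0% at ZT8 and 44.7% at ZT12, a difference of -0.79 ± 0.25 over the warm hours (0 of 3 pairs higher, adjusted p = 0.635). PAR1 went both ways, at 170% of Col-0 at ZT5 and 59.3% at ZT12, with -0.13 ± 0.25 over the warm hours (adjusted p = 1). For PAR1 the genotypes crossed within the oscillating day, with pif7 the higher at ZT0, ZT4, ZT5 and ZT16.

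**Figure D4:**
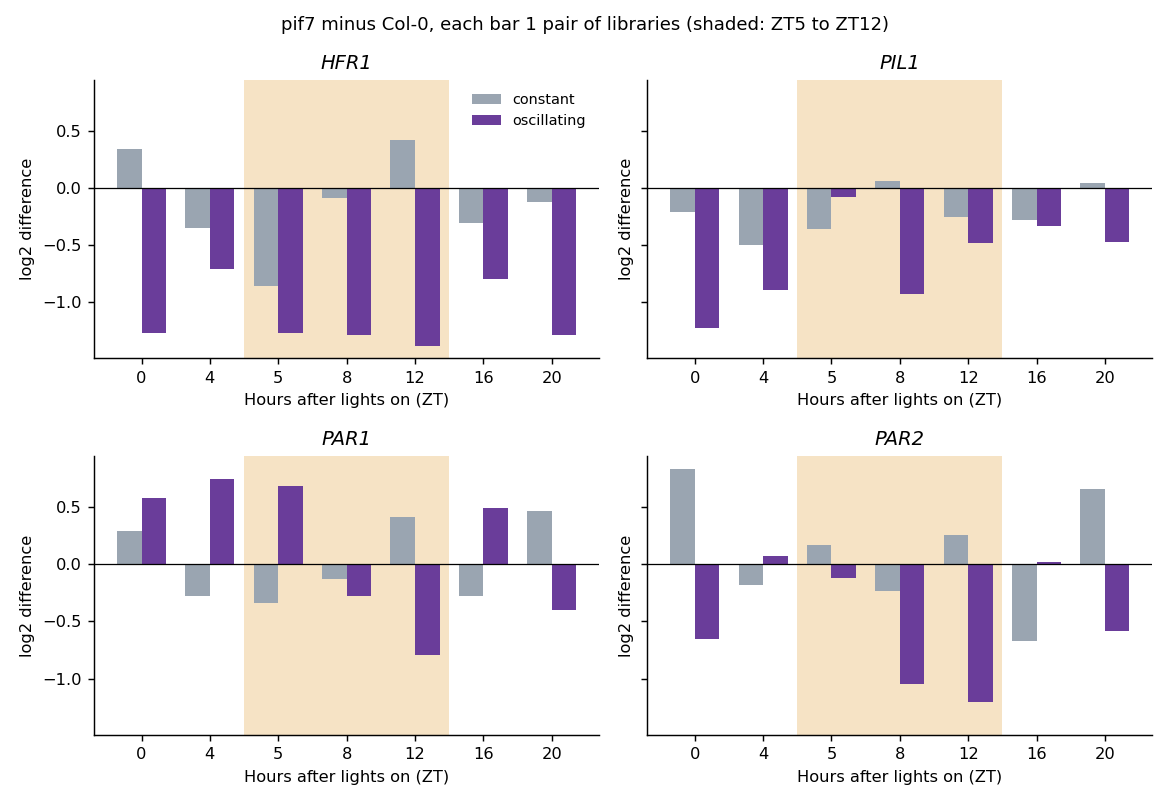
pif7 minus Col-0 difference in log2(scaled TPM + 1) (vertical axis) at each sampling time (horizontal axis) for the 4 genes, each bar 1 pair of libraries, the constant regime in grey and the oscillating regime in purple, with ZT5 to ZT12 shaded. HFR1 and PIL1 are below 0 in all 7 oscillating pairs, and PAR1 changes sign within the oscillating day.

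Whether the regime difference depended on genotype was tested directly. In the warm window the difference in pif7 minus that in Col-0 was -1.13 ± 0.52 for HFR1, -0.85 ± 0.55 for PAR2, -0.31 ± 0.28 for PIL1 and -0.11 ± 0.55 for PAR1 (adjusted p = 1 for each). In limma 0 of 21031 genes passed that test (0%). An unadjusted p under 0.05 was found for 279 genes, HFR1 among them, a smaller share than that threshold passes where no gene differs. A difference of the pif7 terms between regimes over all 7 times, added after seeing the data, gave -1.01 ± 0.18 for HFR1 (adjusted p = 0.151), -0.62 ± 0.23 for PAR2, -0.42 ± 0.17 for PIL1 and 0.13 ± 0.23 for PAR1 (adjusted p = 1 for these 3). In all 1 of 21031 genes passed it, 0.00475%. The smaller HFR1 difference of pif7 thus did not pass a test of the genotypes against each other after adjustment.

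Genes of the same pathway, in lists chosen with earlier results of these data known, were counted over both genotypes in the warm window, to be read against 10.4% of all genes higher and 8.97% lower. Of 7 PIF genes 3 rose and none fell, PIF4 by 1.47 ± 0.44 (adjusted p = 0.0301), PIF5 by 1.19 ± 0.37 (adjusted p = 0.036) and PIF1 by 0.65 ± 0.13 (adjusted p = 0.00478), with a list median of 0.37. PIF4 and PIF5 promote elongation and PIF1 represses germination in darkness. PIF7 was at 0.06 ± 0.22 (adjusted p = 0.876). PIF4 differed by 1.41 in Col-0 and 1.53 in pif7, and PIF5 by 1.17 and 1.22, in a comparison where neither genotype alone passed. Of 12 genes for phytochromes, COP1, the SPA proteins, HY5 and HYH, 1 rose and none fell. That was PHYA, the far-red sensor, at 0.56 ± 0.17 (adjusted p = 0.0348). HYH, a relative of the light-signalling factor HY5, stood at -0.61 ± 0.31 (adjusted p = 0.184) and COP1 at -0.03 ± 0.10 (adjusted p = 0.891).

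Of 16 other helix-loop-helix factors of growth, 7 rose and 2 fell, with a list median of 0.45. PRE5, among those called higher (0.55), and PRE4, among those called lower, lay near the entry level of 1 TPM. Their mean log2(TPM + 1) in the window was 0.80 oscillating against 0.25 constant for PRE5, and 0.48 against 1.23 for PRE4. Each may have been tested only because of the regime in which it is high. These 2 calls are therefore not read against the shares of all genes. BEE3, a growth-promoting brassinosteroid-induced factor, rose by 0.93 ± 0.15 (adjusted p = 0.00129) and PRE1, an atypical factor that frees growth promoters from their inhibitors, by 0.90 ± 0.25 (adjusted p = 0.0234). AIF1, an inhibitor of growth, fell by 0.97 ± 0.30 on the log2 scale (adjusted p = 0.0369). Other calls, named after their values were seen, went across these roles: AIF3 (0.76, adjusted p = 0.00185) and IBL1 (0.88, adjusted p = 0.0299), relatives of growth inhibitors, passed as higher, and PRE4, a relative of PRE1, passed as lower (-0.75, adjusted p = 0.033). Of 13 shade-induced genes 5 rose and none fell, with a list median of 0.59. The auxin response gene IAA29 rose by 1.54 ± 0.29 (adjusted p = 0.00335), the cell wall enzyme gene XTH15 by 1.40 ± 0.18 (adjusted p = 0.00033) and the homeobox gene ATHB2 by 0.84 ± 0.14 (adjusted p = 0.00141). In pif7 against Col-0 in the warm hours of the oscillating regime, 2 of the 13 were lower, where 0.0856% of all genes passed as lower. IAA29 was among them at -3.00 ± 0.36 (adjusted p = 0.00143). IAA29 differed between regimes by 2.82 in Col-0 (adjusted p = 0.0039) and by 0.25 in pif7 (adjusted p = 0.791). The test of these genotypes against each other gave -2.57 ± 0.59 for IAA29 and did not pass after adjustment. Of SAUR15 and SAUR68, auxin-responsive genes reported as repressed by PAR1, neither passed as lower. SAUR68 rose by 0.87 ± 0.22 (adjusted p = 0.0145), and SAUR15 was at 0.45 ± 0.24 (adjusted p = 0.197).

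**Figure D5:**
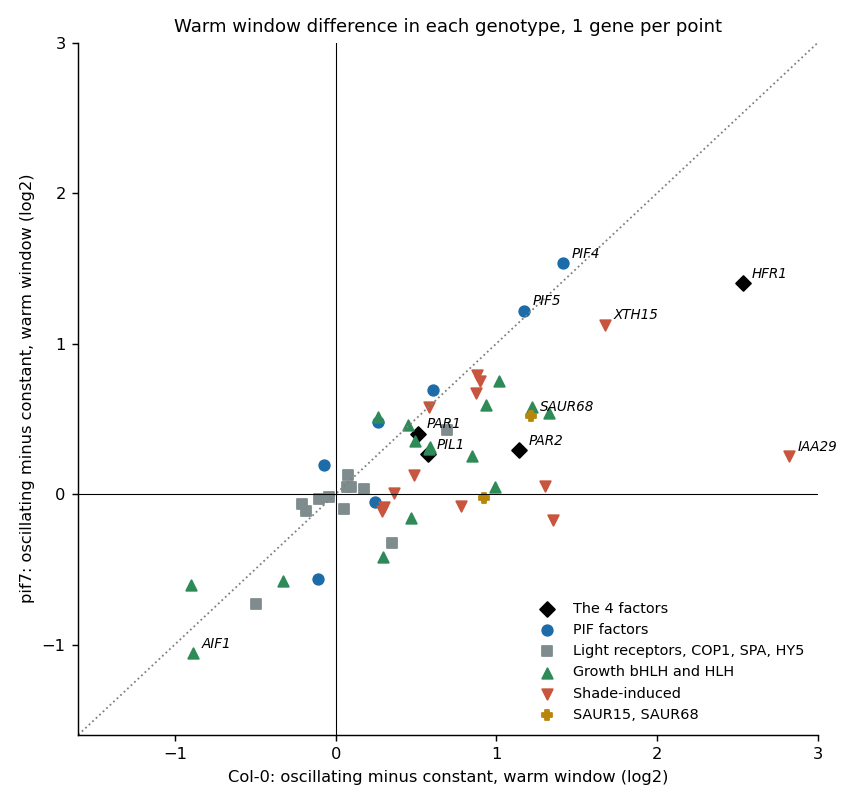
Warm window difference between regimes in Col-0 (horizontal axis) and in pif7 (vertical axis), in log2 units, 1 point per gene, with symbols for the 4 factors and the 5 pathway lists and a dotted line where both genotypes would be equal. HFR1 lies at 2.54 and 1.40, IAA29 at 2.82 and 0.25, and PIF4 at 1.41 and 1.53.

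Genes whose level followed a member most closely over the 28 libraries were found by Pearson's r of log2(TPM + 1), among 15725 genes with a mean of at least 5 TPM. The libraries share times, regimes and genotypes, so r is a description. The 5 nearest to HFR1 were XTH4, a cell wall enzyme gene (r = 0.86), HB-2, which is ATHB2 (0.86), AT1G67050 (0.85), AT3G13980 (0.84) and IAA29 (0.84). The 5 nearest to PIL1 were EXP3, an expansin gene (r = 0.80), CYP708A3 (0.77), ELI3-1 (0.77), AT2G21830 (0.76) and again IAA29 (0.75). Those nearest to PAR1 were AT5G66250 (r = 0.92), J8 (0.92), AT5G65207 (0.92), AT4G05070 (0.91) and PLPB (0.91). Those nearest to PAR2 were AT4G38860 (r = 0.90), SAUR29 (0.89), SAUR27 (0.85), NPSN12 (0.84) and SAUR15 (0.84), of which 3 carry the name of the SAUR family of small auxin-induced genes. By Spearman's rho 3 of the 5 stayed the same for PIL1, PAR1 and PAR2, and 1 of the 5 for HFR1. Among the members themselves the highest r was 0.76 between HFR1 and PAR2 and the lowest -0.12 between PIL1 and PAR1. HFR1 and PIL1 reached 0.67, and PAR1 and PAR2, the closest relatives, 0.53.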

How the data were processed

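The members and lists were chosen with earlier results of these data known. HISAT2, StringTie and the TAIR10 build are named in the submitters' processing notes. Versions and the strand setting are not given in the sources used here. The authors deposited a TPM value, an FPKM value and a coverage signal for each gene, per the file headers. The deposited TPM column adds up to 1000000 over assembled loci, and its reference genes, which are listed besides, make 1010427 to 1034801. The depth of 1.32 to 2.82 gigabases was derived here from deposited coverage and FPKM, and gives no counting interval.

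TPM was divided by median-ratio factors and fitted as log2(TPM + 1) with limma 3.58.1 (R 4.3.3, variance trend) for 21031 genes at 1 TPM or more in at least 2 libraries, with Benjamini-Hochberg adjustment over all of them and a threshold of 0.05. Regime terms per genotype (window or outside), a regime term per time, genotype terms per regime and an F test of time were fitted, the last within a regime. With no replicates, p reflects how steady a difference stays over times and genotypes. The fit was tested on simulated data. Members, marker genes and the 5 most like genes per member were named by a fixed rule. Pathway genes were named by the largest warm window difference of each list. COP1, PIF7, AIF3, IBL1, PRE4 and PRE5 were named outside that rule. Of 33602 reference genes, 32835 matched RefSeq, which gave symbols. Of 26712 RefSeq coding genes found in the files, 26712 overlapped them on the same strand in TAIR10.1. Alternatives were another pseudocount, filter, scaling, trend or set of libraries, leaving out each time, other motif windows and Spearman's rho. Work used Python 3.11.15 with pandas 2.3.3.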

Additional observations from a re-analysis of the deposited data

Results flagged for a closer look

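An assembled locus on the strand opposite to PAR1, outside the measurement of the 4 genes, was listed in 11 of 28 libraries, 3 of 14 constant and 8 of 14 oscillating. It was taken up here because its highest level, 2.93 TPM in pif7 at ZT8 of the oscillating regime, lay above its highest level in the constant regime, 2.51 TPM in Col-0 at ZT5. Where listed it amounted to 7.13% to 33.6% of the level of PAR1, the highest share being in pif7 at ZT16 of the oscillating regime. No such locus was listed at HFR1, PIL1 or PAR2. The library kit marks strand, the strand setting of the counting is not given in the sources used here, and an assembler lists a locus only past its own minimum, so a library without it is not shown to lack the transcript. Depth also differed, at 1.70 to 2.13 gigabases in constant, 1.32 to 2.41 in Col-0 oscillating and 2.00 to 2.82 in pif7 oscillating libraries. Its part in how often the locus was listed was not tested. The difference between regimes was not tested.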

How the results depend on the processing

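Of 620 values of 44 results recomputed under alternatives, 555 kept their direction and their side of the threshold, 38 fell short of it, 16 newly passed it and 11 changed sign, and the cause was not tested. HFR1 over both genotypes in the warm window passed under all 15 alternatives, with adjusted p at most 0.0146. With a pseudocount of 0.1 PIL1 in that window was 0.90, with 5 it was 0.13, unscaled it was 0.41 and from its own pairs alone 0.42, none of which passed. HFR1 outside the window did not pass with a pseudocount of 5 (0.58), no filter (0.84) or quantile normalization (0.82), and its window minus outside difference passed with a pseudocount of 5 (0.89), quantile normalization (1.16) and without ZT5 (1.69), as did those of PAR1 (1.46) and PAR2 (1.12) without ZT5. From their own pairs alone HFR1 in the Col-0 window (2.54) and in the oscillating cool hours (-1.02) did not pass, the latter also not without a filter (-1.02). PAR2 over the constant day (1.40) did not pass without a filter or a variance trend. HFR1 in the pif7 window passed with quantile normalization (1.41) and, without the Col-0 ZT5 pair, at 1.40. Without that pair PAR1 (0.81) and PAR2 (1.02) over both genotypes, and PIL1 (0.88) and PAR2 (1.75) in Col-0, passed. It was their only Col-0 window pair below 0, so these calls give no support of their own. Without a filter PAR1 (1.21) and PAR2 (1.60) did not pass at ZT12. Quantile normalization turned PAR2 at ZT20 to -0.013.

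With each time left out in turn, the warm window difference over both genotypes ranged from 0.31 to 0.57 for PIL1, 0.079 to 0.87 for PAR1 and 0.27 to 1.18 for PAR2. In Col-0 it ranged from 2.10 to 3.29 for HFR1, 0.37 to 0.88 for PIL1, -0.14 to 1.21 for PAR1 and 0.55 to 1.75 for PAR2, and in pif7 from 1.11 to 1.79 for HFR1 and -0.0011 to 0.62 for PAR2. The pif7 minus Col-0 difference ranged from -0.61 to 0.028 for PIL1 and -0.68 to 0.44 for PAR1. Outside the window the range was 0.76 to 0.95 for HFR1, 0.53 to 0.62 for PIL1 and -0.035 to 0.22 for PAR2. Window minus outside ranged from 0.82 to 1.69 for HFR1, 0.66 to 1.46 for PAR1 and 0.21 to 1.12 for PAR2. In Col-0 outside the window, PIL1 ranged from 0.76 to 0.89 and HFR1 from 1.10 to 1.49. pif7 against Col-0 ranged from -0.053 to 0.081 for PAR1 and -0.0004 to 0.25 for PAR2 at constant 17 °C. In the warm hours it ranged from -1.33 to -1.28 for HFR1 and -0.54 to 0.20 for PAR1, and in the cool hours from -1.12 to -0.93 for HFR1. The regime difference of the pif7 term ranged from -0.023 to 0.35 for PAR1. The daily span at constant 17 °C ranged from 0.79 to 1.33 for PAR1 and 1.03 to 1.40 for PAR2. Depth limits PIL1, which had a coverage of 0.284 to 3.19 per base.

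In the warm window over both genotypes 4083 genes passed, and between 1254 and 4302 under the alternatives. In Col-0 927 passed, and between 2 and 1022. In pif7 787 passed, and between 0 and 887. Outside the window over both genotypes 1117 passed, and between 350 and 1600, and for window minus outside 2052, and between 453 and 2671. Outside the window 164 passed in Col-0, and between 18 and 224, and 64 in pif7, and between 0 and 80. For pif7 against Col-0 in the oscillating regime 25 passed in the warm hours, and between 5 and 36, and 25 in the cool hours, and between 7 and 36. For the difference between genotypes in the warm window 0 passed, and at most 4, and for that of the pif7 terms between regimes 1, and at most 3. At ZT20 184 passed, and between 122 and 169. No paired analysis was possible because each condition has 1 library and no replicate number joins conditions. The fits pair libraries by time instead.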
